A study of Homo sapiens with 8 samples.

Results

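The mRNAs of 6 ubiquitin ligases of the NEDD4 family were followed site by site in an RNA immunoprecipitation of the RNA-binding protein QKI7: ITCH, NEDD4, NEDD4L, SMURF1, SMURF2 and WWP1. They were chosen by gene name, with earlier results of these data known, and every row with 1 of these 6 names was used. The relatives WWP2, HECW1 and HECW2 had no row in any list, so shares given for the members are those of these 6 genes. The 6 genes are among 6520 named in the 4 deposited peak lists and account for 47 of 42083 peaks. Peaks of a gene that shared at least 1 exon base on the same strand were joined into a site, which gave 15 sites for the 6 genes among 14518 in all. At 47 of 47 peaks no peak under another gene's name lay at the same place.

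The study used HepG2, a human liver cancer cell line, made to express Cas9 and, from a lentivirus, QKI7 with a Flag tag. The lists therefore report RNA bound by an added, tagged protein, and the GFP-positive cells that carried it were expanded for the experiment. The groups were IP RNA with a guide against METTL1 (sgMETTL1), input RNA with that guide, IP RNA with a control guide (sgNS) and input RNA with the control guide, with 2 samples in each. METTL1, with WDR4, places internal 7-methylguanosine, chiefly on tRNA, and is separate from the enzyme that methylates the mRNA cap. The question was whether its loss alters the binding of QKI7 to transcripts. All groups share the Cas9 and QKI7 transgenes, and no label says whether the cells were a clone or whether replicates came from separate cultures. Each list compares 1 IP with 1 input sample, so each guide has 2 lists.

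The lists held 10095 and 9388 peaks with sgMETTL1, against 11562 and 11038 with sgNS. METTL1 has no peak in any list, and a peak would not measure its level, so its loss could not be checked here. Of 8 hepatocyte-derived markers 4 had a peak (ALB, APOB, SERPINA1 and FGB), and of 7 fibroblast or blood cell markers HBB and LYZ did. A peak marks bound RNA rather than expression, and the cell type was not tested in this way. The value of a peak is the authors' fold enrichment of IP over input. The read numbers behind it are not listed, so its depth is unknown, and a lower IP signal and a higher input signal cannot be told apart. In bulk cultures a change in some of the cells and a smaller change in all of them cannot be told apart either.

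Ligases of this family share a lipid-binding C2 domain, WW domains that hold proline-rich motifs of the substrate, and a HECT domain that takes ubiquitin from an E2 enzyme on a cysteine before passing it on. They mark membrane proteins, signalling proteins and transcription factors for removal or sorting. Quaking proteins bind RNA through a KH-type domain that recognises an ACUAA core, often with a UAAY element nearby, in introns and in the 3' part of mRNAs, and they govern splicing, stability and translation. No genome sequence was used here, so the sites are given by position and no motif was searched.

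The last exon block of all 47 peaks of the 6 genes lay close to the 3' end of the gene. These peaks come from 15 sites, most of which are counted in more than 1 list. The middle of the last exon block lay 69.5 to 4960 bases upstream of the 3' end in RefSeq (GRCh38.p14), which is 0.0596 to 2.54% of the gene's span. Within 5000 bases of the 3' end were 47 of 47 member peaks, against 81.7% of the 40349 peaks whose gene name matched 1 current RefSeq symbol on the same chromosome and 74.8% of the 11832 of these in genes of at least 100000 bases. The window of 5000 bases ends just above the farthest member peak. A limit of 5% of the span upstream, which also lets in peaks beyond the 3' end, held 47 of 47 member peaks. It held 61.4% of the 40349 peaks and 82.8% of the 11832 in long genes. The 6 genes span 116669 (SMURF1) to 357315 bases (NEDD4L). Of the 47 peaks, 44 were a single block, and the other 3 were the joined peaks of ITCH, whose first blocks lay farther upstream. The map of peaks shows that ITCH and NEDD4L carried several sites and that SMURF2 and WWP1 carried 1 site each. ITCH and NEDD4L had 4 sites each, a number reached by 16.5% of all genes. NEDD4 had 3 sites and SMURF1 had 2, where the median over all genes was 2.

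**Figure D1:**
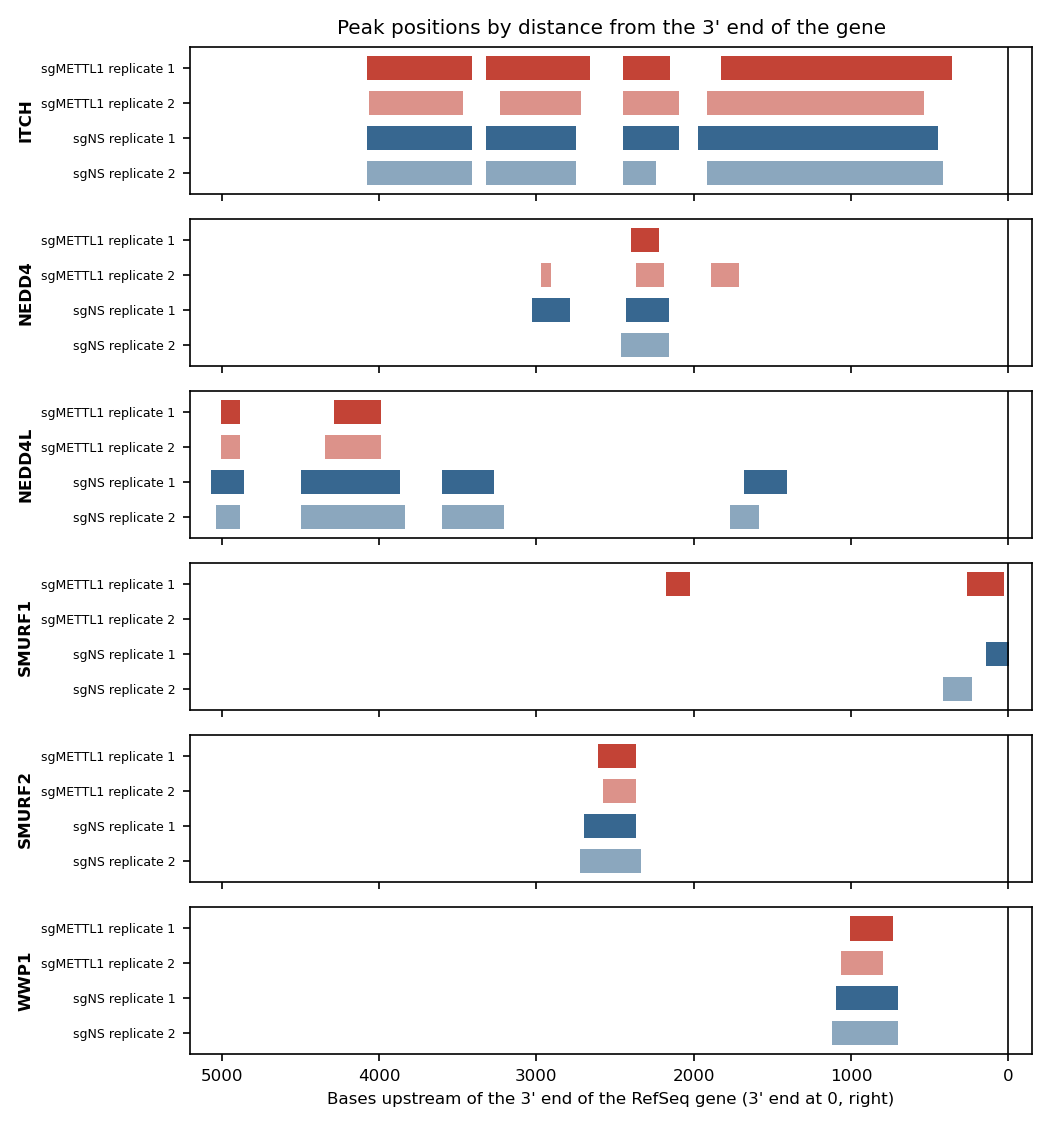
Exon blocks of every peak of the 6 genes (rows: genes, and within each the 2 sgMETTL1 lists above the 2 sgNS lists) against the distance in bases from the 3' end of the RefSeq gene. ITCH has 4 sites in every list, and the 2 sites of NEDD4L nearest to the 3' end appear with sgNS alone; the small ITCH blocks farther upstream in the joined peaks lie outside the window.

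ITCH, a ligase named after the itchy mouse and known for marking JUN family proteins in T cells, was the most strongly enriched of the 6 in every list. Its 4 sites follow each other over the last stretch of the gene on the plus strand of chromosome 20, and all 4 were in all 4 lists. Site 4, the one nearest to the 3' end (chr20:34509801-34511414 on GRCh38, as are all positions here), had folds of 39.6 and 17.4 with sgMETTL1, against 26.9 and 37.0 with sgNS. Replicate 1 with sgMETTL1 was the highest and replicate 2 with sgMETTL1 the lowest of the 4, so the guides overlapped. The peak was wide, at 1465 and 1376 bases with sgMETTL1, against 1525 and 1496 bases with sgNS. Site 4 stood between the 3.83rd and the 13.3rd percentile of all peaks of its list by fold, where 0 is the strongest.

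Site 1 of ITCH (chr20:34492595-34508366) had folds of 9.53 and 8.34 with sgMETTL1, against 11.8 and 9.20 with sgNS. The lists of the guides overlapped here too. It joined 3 exon blocks in both sgNS lists, 2 in replicate 1 of sgMETTL1 and 1 in replicate 2 of sgMETTL1, and it is the only site of the 6 genes with joined blocks. The authors' -log10 p was 240 and 221 with sgMETTL1, against 471 and 386 with sgNS. The -log10 p was lower in both sgMETTL1 lists than in both sgNS lists at 7 of the 9 member sites of all 4 lists, where 76.2% of all such sites had this order. It was higher at 0 of 9, against 3.45% of all sites. The lower -log10 p of this site is thus shared by most sites of the series.

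The middle sites of ITCH were weaker. Site 2 (chr20:34508456-34509113) had folds of 2.66 and 2.41 with sgMETTL1, against 3.00 and 4.14 with sgNS. Both sgMETTL1 values were below both sgNS values, an order held by 38.7% of all sites of the 4 lists. Site 3 (chr20:34509323-34509681) had folds of 1.93 and 2.04 with sgMETTL1, against 2.29 and 1.48 with sgNS, and the sgNS values lay on both sides of the sgMETTL1 values. The order of the 4 ITCH sites by fold was the same in all 4 lists, with site 4 first, then site 1, site 2 and site 3.

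NEDD4L, a ligase best known for removing the epithelial sodium channel from the cell surface, had 2 sites in all 4 lists and 2 in the sgNS lists alone. It lies on the plus strand of chromosome 18. Site 2 (chr18:58397045-58397704) had folds of 1.79 and 2.06 with sgMETTL1, against 3.42 and 3.70 with sgNS. The guides did not overlap, and the gap between them was larger than the gap between replicates of either guide. The peak measured 300 and 360 bases with sgMETTL1, against 630 and 660 bases with sgNS, and its -log10 p was 7.29 and 10.8 with sgMETTL1, against 64.8 and 70.4 with sgNS. Both measures kept the guides apart. The same order was found at 38.7% of all sites of the 4 lists for the fold, at 49.1% for width and at 76.2% for -log10 p.

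Site 3 of NEDD4L (chr18:58397944-58398333) was listed at 2.00 and 1.68 with sgNS and in neither sgMETTL1 list. Site 4 (chr18:58399772-58400131) was listed at 1.96 and 1.47 with sgNS and in neither sgMETTL1 list. Both were weak peaks, since the smallest fold in the sgNS lists was 1.15 and 1.09. Sites found in both sgNS lists and in no sgMETTL1 list were 2 of the 15 member sites and 7.42% of all sites. The reverse pattern was held by 0 of 15 member sites and by 1.21% of all sites. The sgMETTL1 lists are also the shorter ones. With the same number of best-ranked peaks by p from each list (9388), site 3 kept this pattern, and site 4 did not, as its peak in replicate 2 of sgNS fell outside that number.

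Site 1 of NEDD4L (chr18:58396475-58396685) showed no such separation. Its folds were 1.73 and 2.01 with sgMETTL1, against 2.72 and 1.67 with sgNS. The lowest and the highest value both came from sgNS.

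NEDD4, the ligase that gave the family its name and acts on growth factor receptors and other membrane proteins, had 1 site in all 4 lists. It lies on the minus strand of chromosome 15. Site 2 (chr15:55829076-55829375) had folds of 2.95 and 2.85 with sgMETTL1, against 4.56 and 11.6 with sgNS. Both sgMETTL1 values were below both sgNS values, as at 38.7% of all sites of the 4 lists. The sgNS replicates lay farther apart from each other than the lower of them lay from sgMETTL1. Site 1 (chr15:55829705-55829944) was listed in 1 list of each guide, at 1.81 in replicate 2 of sgMETTL1, against 4.86 in replicate 1 of sgNS. Site 3 (chr15:55828626-55828806) was listed in replicate 2 of sgMETTL1 alone, at 16.7-fold with a -log10 p of 3.77. That fold was the largest of NEDD4 in any list, yet the peak ranked at the 14.4th percentile of its list by fold and at the 82.3rd by p.

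SMURF1 and SMURF2, which mark SMAD proteins and receptors of the BMP and TGF-beta pathways, differed in how repeatably they were listed. SMURF2, on the minus strand of chromosome 17, had 1 site in all 4 lists (chr17:64544617-64545006). Its folds were 6.10 and 5.16 with sgMETTL1, against 6.78 and 22.2 with sgNS. Both sgMETTL1 folds were below both sgNS folds, as at 38.7% of all sites of the 4 lists, with replicate 2 of sgNS far above the other 3 lists. The -log10 p of the 2 sgNS lists was close, at 24.1 and 25.0, against 10.8 and 7.82 with sgMETTL1.

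SMURF1, on the minus strand of chromosome 7, had no site in all 4 lists, and replicate 2 of sgMETTL1 listed no peak of it. Site 2 (chr7:99027435-99027853), at the very 3' end, had a fold of 3.05 in replicate 1 of sgMETTL1, against 5.14 and 2.20 with sgNS. The peaks of the 2 sgNS lists share no base with each other and were joined through the sgMETTL1 peak between them, so this site is a stretch of neighbouring peaks. Its -log10 p was 3.20 with sgMETTL1, against 4.75 and 5.80 with sgNS. Site 1 (chr7:99029466-99029615) was listed at 1.75 in replicate 1 of sgMETTL1 alone.

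WWP1, a ligase known for acting on the transcription factor KLF5 and on TGF-beta signalling, lies on the plus strand of chromosome 8 and had 1 site in all 4 lists (chr8:86467380-86467799). Its folds were 3.29 and 2.44 with sgMETTL1, against 4.99 and 2.85 with sgNS. The lists of the guides overlapped, since replicate 1 of sgMETTL1 stood above replicate 2 of sgNS. The peak was narrower with sgMETTL1, at 270 and 270 bases, against 390 and 420 bases with sgNS.

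**Figure D2:**
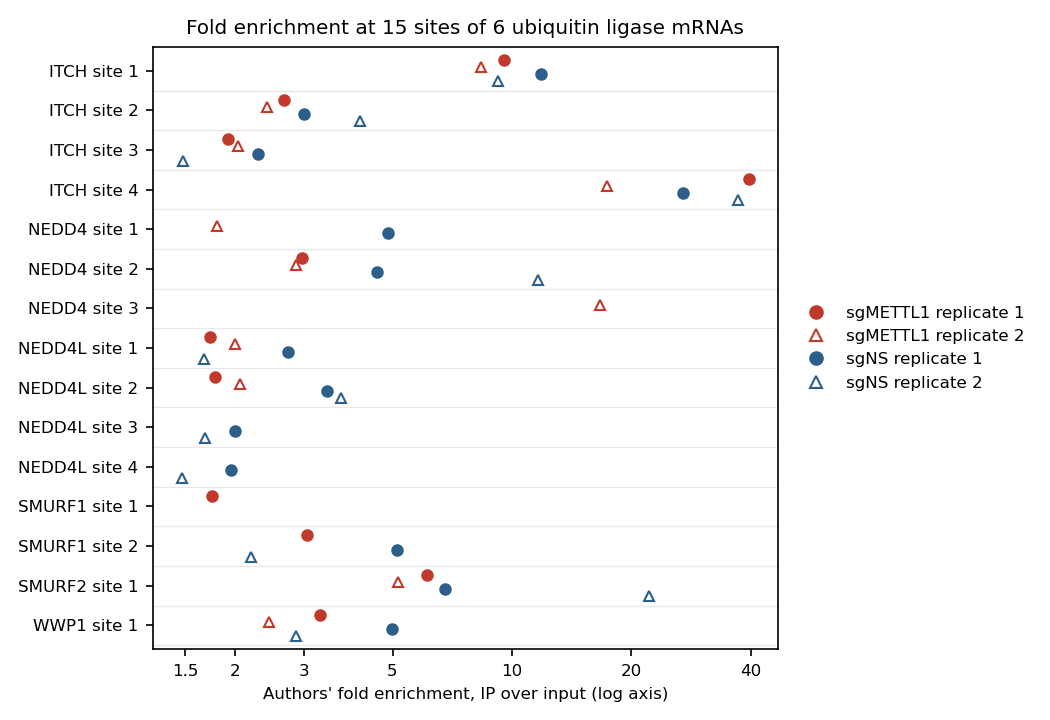
The authors' fold enrichment (log axis) at each of the 15 sites, with sgMETTL1 lists in red above sgNS lists in blue, filled circles for replicate 1 and open triangles for replicate 2. ITCH site 4 is the strongest in every list (39.6 and 17.4 with sgMETTL1, 26.9 and 37.0 with sgNS), and NEDD4L sites 3 and 4 have no point with sgMETTL1.

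By the strongest fold per list, ITCH came first in 4 of 4 lists, and the order below it was not stable. SMURF2 came second in replicate 1 of sgMETTL1 and in both sgNS lists. In replicate 2 of sgMETTL1 NEDD4 stood second at 16.7, through its site 3, close to ITCH at 17.4. WWP1, NEDD4 and SMURF1 changed places between replicates. NEDD4L had the lowest strongest fold in 3 of 4 lists, and in replicate 2 of sgNS its 3.70 lay above WWP1 at 2.85 and SMURF1 at 2.20.

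Of the 15 member sites 9 were in all 4 lists, where the share over all sites was 41.3%. Of the 33 sites of the other HECT ligases (16 genes, among them HACE1 and HERC2) 14 were in all 4 lists. 2 of the 15 member sites were in 1 list alone, where 32.4% of all sites were. By gene, 5 of 6 members were named in all 4 lists, SMURF1 being the exception, against 63.7% of all genes. None of the 6 was in both lists of one guide and neither list of the other, a pattern held by 4.63% of all genes on the sgNS side and 1.52% on the sgMETTL1 side.

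The guides were compared by rank, as the labels do not say whether the folds of the 4 lists are on one scale. The strongest fold at each of the 6003 sites of all 4 lists was ranked within its list, the rank was turned into a normal score (higher is stronger), and 2 sgMETTL1 lists were compared with 2 sgNS lists with limma. No member site passed at an FDR of 5%, and neither did any other site (0 of 6003, which is 0.0%; smallest adjusted p = 0.333 by limma). An unadjusted p under 0.05 was reached by 628 sites (10.5%), and among the 9 member sites by NEDD4L site 2. Its score differed by -0.81 (SE 0.22, limma's unadjusted p = 0.0144, adjusted p = 0.396 over all sites). Its place among the sites of all 4 lists was the 95.6th and 90.6th percentile with sgMETTL1, against the 78.4th and 73.5th with sgNS, where 100 is the weakest. Of all sites, 2.28% had a difference as low or lower.

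NEDD4 site 2 had the lowest difference of the members, at -0.86 (SE 0.37, limma's adjusted p = 0.484). Its place was the 79.3rd and 78.1st percentile with sgMETTL1, against the 67.3rd and 28.5th with sgNS. A difference as low or lower was held by 1.82% of all sites. ITCH site 2 differed by -0.29 (SE 0.24, adjusted p = 0.690), SMURF2 by -0.51 (SE 0.38, adjusted p = 0.660) and WWP1 by -0.16 (SE 0.30, adjusted p = 0.879). On the other side ITCH site 3 stood at 0.49 (SE 0.37, adjusted p = 0.665). ITCH sites 1 and 4 and NEDD4L site 1 lay between -0.06 and 0.02.

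In all, 7 of the 9 member sites had a difference below 0 and 2 above, with a median of -0.16, against 51.9% below and a median of -0.02 over all sites. Of these 7, 4 (ITCH site 4, NEDD4L site 1, SMURF2 and WWP1) turned when 1 list was left out, and without replicate 1 of sgNS 5 were below 0 and 4 above. The ranks of both sgMETTL1 lists were below those of both sgNS lists at 3 of 9 member sites (ITCH site 2, NEDD4 site 2 and NEDD4L site 2), against 23.7% of all sites. They were above at 0 of 9, against 20.3% of all sites. The folds themselves did not overlap at 4 of 9 member sites, these 3 and SMURF2, all lower with sgMETTL1. That was so for 38.7% of all sites, and the reverse, held by 0 of 9 member sites, for 9.9%.

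**Figure D3:**
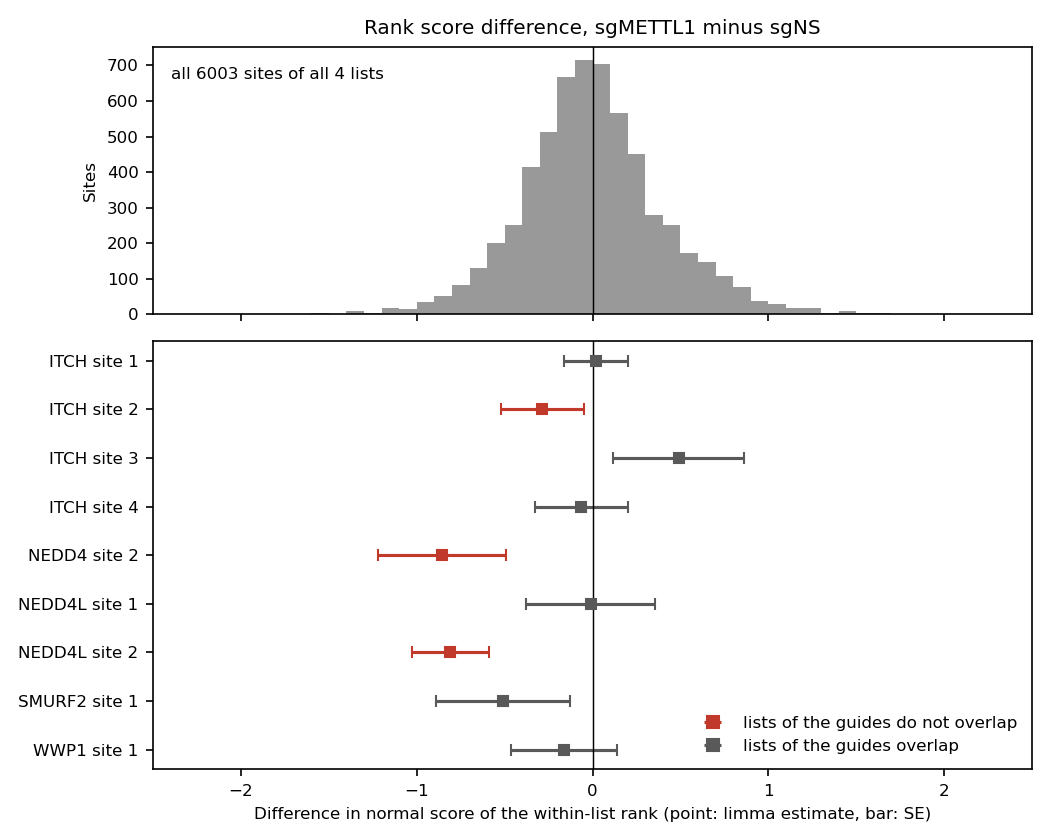
Difference in rank score, sgMETTL1 minus sgNS: above, the number of sites in bins of 0.1 for all 6003 sites of all 4 lists (1 site at -2.74 lies outside the axis); below, the 9 member sites with limma's estimate and SE. NEDD4L site 2 (-0.81) and NEDD4 site 2 (-0.86) lie lowest, and red marks the 3 sites where the lists of the guides do not overlap.

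Peaks of the family were narrower with sgMETTL1 at most sites. At 7 of the 9 sites of all 4 lists both sgMETTL1 widths were below both sgNS widths, the exceptions being ITCH sites 2 and 3, and at 0 of 9 above. Over all such sites this was the case for 49.1%, and the reverse for 4.0%. The median ratio of width, sgMETTL1 over sgNS, was 0.669 over the member sites and 0.850 over all sites. At the same sites -log10 p had a median ratio of 0.379 over the members and 0.504 over all, and its part in the narrower peaks was not tested. For the fold the median ratio was 0.731 over the members and 0.856 over all. Peaks of the 6 genes covered 4642 and 4226 bases with sgMETTL1, against 6023 and 5695 bases with sgNS. As a share of all bases under peaks this was 0.125 and 0.118% with sgMETTL1, against 0.125 and 0.123% with sgNS. The mean fold of the member peaks was 6.76 and 5.75 with sgMETTL1, against 6.19 and 8.27 with sgNS. These means are over 11 and 11 peaks with sgMETTL1, against 13 and 12 with sgNS. The sites differ from list to list, so the means do not compare the guides at the same sites.

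**Figure D4:**
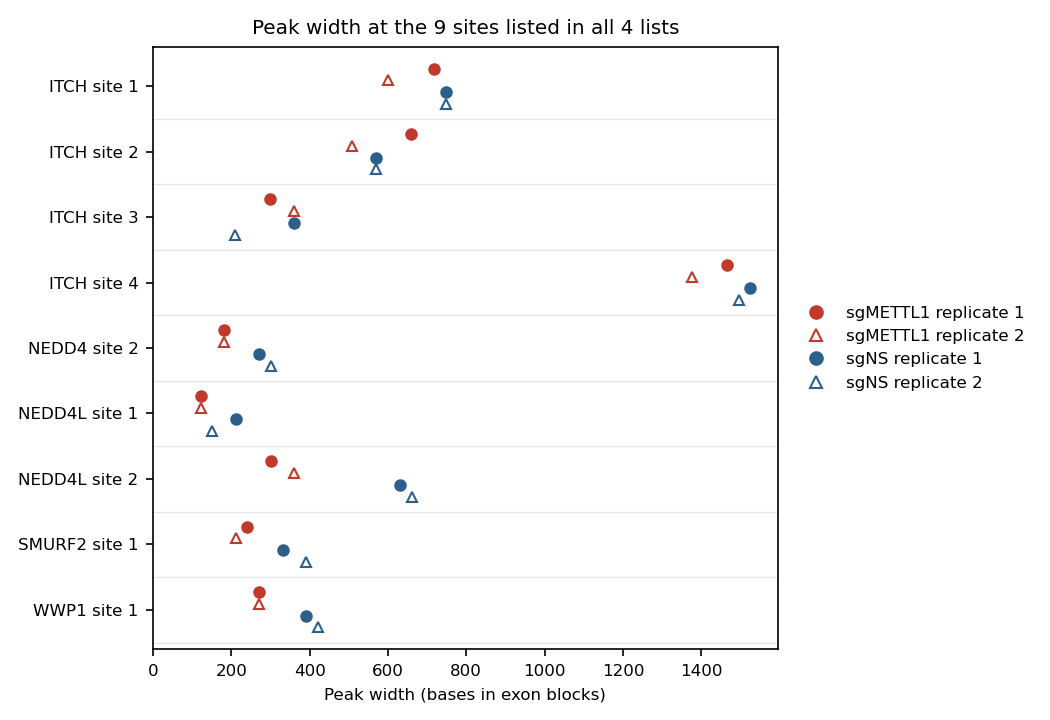
Peak width in exon bases at the 9 member sites of all 4 lists, with sgMETTL1 lists in red above sgNS lists in blue, filled circles for replicate 1 and open triangles for replicate 2. NEDD4L site 2 measures 300 and 360 bases with sgMETTL1, against 630 and 660 bases with sgNS.

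The same comparison was made by gene, with the highest fold of a gene at whichever site it lay, for the 4150 genes named in every list. Limma called 0 of them (0.0%; lowest adjusted p 0.221), while 408 (9.83%) were below an unadjusted p of 0.05. NEDD4L was the member among these, at -0.79 (SE 0.23, adjusted p = 0.415 by limma). It was also the 1 of 5 members whose ranks in both sgMETTL1 lists lay below those in both sgNS lists, as they did for 22.7% of all genes; the reverse, which 0 of 5 members showed, was held by 20.0%. SMURF2 stood at -0.54 (SE 0.41, adjusted p = 0.692), WWP1 at -0.14 (SE 0.30, adjusted p = 0.895) and ITCH at -0.08 (SE 0.28, adjusted p = 0.937). NEDD4 stood at 0.01 (SE 0.69, adjusted p = 0.998), although its site 2 was the lowest of the member sites, because its strongest fold in replicate 2 of sgMETTL1 came from site 3. SMURF1 could not be fitted, as 1 list does not name it.

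Genes whose scores in the 4 lists lay closest to those of a member were found by the Euclidean distance over the 4 lists. For ITCH they were VAMP4, HECA, RNF125, FOXP1 and AP4B1 (distances of 0.12 to 0.29). For NEDD4L they were CERK, KCTD3, DGUOK, HNRNPC and CTSB (0.29 to 0.39). For WWP1 they were SETDB1, SERPINA10, SERP1, GLTP and PITPNA (0.22 to 0.30). For SMURF2 they were MICU3, ARID5B, NKRF, CNST and WDFY1 (0.32 to 0.41).

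In the lists of related genes that follow, counts and separated folds are to be read against the whole series. There, 67.5% of genes with any peak were in both sgMETTL1 lists and 76.3% in both sgNS lists. By rank, both sgMETTL1 lists lay below both sgNS lists for 22.7% of all genes and above for 20.0%. By the fold itself this was counted over sites alone, at 38.7% below and 9.9% above. The remaining relatives WWP2, HECW1 and HECW2 had no row in any of the 4 lists. Of 14 adaptors and activators of the family, 8 had any peak and 6 were in both lists of each guide. NDFIP2 and NDFIP1, membrane adaptors that recruit and activate these ligases, and CBL, a RING ligase, ranked best among them. NDFIP2 had folds of 33.5 and 38.9 with sgMETTL1, against 25.0 and 17.5 with sgNS, with both sgMETTL1 values higher (score difference 0.55, SE 0.21, limma's adjusted p = 0.497). NDFIP1 had folds of 16.6 and 25.0 with sgMETTL1, against 26.7 and 22.6 with sgNS, and the guides overlapped.

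Of 28 other proteins that the family is described to act on or with, 17 had any peak, and 12 were in both sgMETTL1 and 13 in both sgNS lists, led by DVL1, SGK1 and SGK3. SGK1, the kinase that phosphorylates NEDD4L and weakens its hold on the sodium channel, had folds of 18.3 and 12.0 with sgMETTL1, against 62.5 and 33.8 with sgNS. Both sgMETTL1 values were lower (score difference -0.92, SE 0.27, limma's adjusted p = 0.435). DVL1 stood at -0.06 (SE 0.19, limma's adjusted p = 0.931) and SGK3 at -0.29 (SE 0.18, limma's adjusted p = 0.627). CFLAR, an inhibitor of caspase-8 that ITCH acts on, is named because it had an unadjusted p under 0.05, and was chosen after its values were seen. Its folds were 6.70 and 5.75 with sgMETTL1, against 4.0 and 3.70 with sgNS (score difference 0.76, SE 0.18, limma's adjusted p = 0.353).

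A further list held 15 genes: SMAD proteins and receptors of the TGF-beta family, on which the SMURF ligases act, and SKIL. Of these, 14 had any peak, and 11 were in both sgMETTL1 and 12 in both sgNS lists. BMPR2, a BMP receptor, had the best rank, with folds of 56.5 and 55.7 with sgMETTL1, against 45.4 and 47.5 with sgNS. Its guides did not overlap, with sgMETTL1 higher (score difference 0.20, SE 0.18, limma's adjusted p = 0.741). SMAD9 and TGFBR1 followed. SMAD9, a BMP-regulated SMAD, had folds of 27.4 and 24.2 with sgMETTL1, against 43.5 and 41.3 with sgNS, and the guides did not overlap (score difference -0.36, SE 0.18, limma's adjusted p = 0.576).

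Of 8 E2 enzymes 6 had any peak, and 4 were in both sgMETTL1 and 6 in both sgNS lists, with UBE2D1, UBE2D3 and UBE2E1 ranked best. UBE2D3 was listed at 9.84 and 12.7 with sgNS and was in no sgMETTL1 list. Of 8 deubiquitinases 6 had any peak, and 3 were in both sgMETTL1 and 4 in both sgNS lists, and USP9X, UCHL5 and USP8 ranked best, USP9X from 1 list alone. USP15, a deubiquitinase that works against SMURF2 on TGF-beta receptors, is named because it was listed with sgNS (20.8 and 6.34) and in no sgMETTL1 list, and was chosen after its values were seen. The pattern of UBE2D3 and USP15 was shared by 4.63% of all genes.

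Of the 18 other HECT ligases 16 had any peak, 11 were in both sgMETTL1 lists, 11 in both sgNS lists and 10 in all 4, with HACE1, HERC5 and HERC4 ranked best. HERC2, a large HECT ligase of the DNA damage response, is named because its unadjusted p was under 0.05, after its values were seen. Its folds were 9.75 and 6.94 with sgMETTL1, against 6.12 and 5.70 with sgNS. Both sgMETTL1 values were higher (score difference 0.53, SE 0.19, limma's adjusted p = 0.484). The score differences of HACE1, HERC5 and HERC4 were 0.07, 0.55 and 0.34 (limma's adjusted p = 0.917, 0.655 and 0.695).

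By limma's test 0 genes of these lists passed at an FDR of 5% in either direction. Below and above a score difference of 0 were 3 and 3 adaptors and 7 and 5 substrates and partners. The list of SMAD proteins, receptors and SKIL divided into 4 and 7. E2 enzymes divided into 3 and 1, deubiquitinases into 2 and 1, and other HECT ligases into 4 and 6. The 5 members in that fit divided into 4 and 1. List medians lay between -0.17 (E2 enzymes) and 0.04 (other HECT ligases), against -0.14 for the members and -0.02 for all genes.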

How the data were processed

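RNA immunoprecipitation sequencing of 8 samples was analysed. Per the labels' protocols, HepG2 cells were cross-linked with UV, libraries were stranded and made after removal of ribosomal RNA. Per the submitters' processing notes, STAR and GRCh38 were used; for the peak caller, its threshold and the aligner's version, the entry is: not given in the sources used here. For each IP and input pair the authors deposited 1 peak list, with replicates not pooled per the sample descriptions. Deposited per peak were a fold (a ratio of IP over input, whose scaling from list to list is not stated), a p-value, and base-10 logarithms of p and FDR, handled as a score because they exceed any usual range. The FDR of listed peaks reached about 5%.

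Sites were formed from peaks of 1 gene name and strand that shared at least 1 exon base, directly or through another peak, and numbered from 5' to 3'. A site's value was its strongest fold. Ranks over sites or genes of all 4 lists were turned into normal scores and fitted with limma 3.58.1 in R 4.3.3 (lmFit, eBayes, Benjamini-Hochberg over all sites or genes, two-sided, FDR of 5%). The joining of peaks and the limma step were tested on simulated data. The simulated shift exceeded every site score difference of the main run, so the recovery of smaller changes was not tested. Other steps used Python 3.11.15, pandas 2.3.3, numpy 2.4.6, scipy 1.17.1 and matplotlib 3.10.9. Gene spans came from RefSeq on GRCh38.p14. The p-values reflect the spread between these lists alone, which may be technical.

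Every site of the 6 members was described. Of the related lists, the 3 genes with the best mean rank were named, and for likeness the 5 nearest genes; those of NEDD4 are not reported here. Members and lists were chosen with earlier results of these data known. Alternatives were 50% reciprocal overlap, log2 folds, ranks of -log10 p, mean folds, a fold minimum (2 times the lowest of the list), equal numbers of peaks, the replicate number as a block, and leaving out each list. Lists of the same replicate number showed no shared deviation in rank score (correlation of their deviations -0.0009 over sites). This cannot tell whether they were processed together, which no label states. Transcript parts and sequences were not analysed here.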

Additional observations from a re-analysis of the deposited data

How the results depend on the processing

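Limma called 0 sites and 0 genes in every alternative run, with 486 to 1085 sites and 329 to 500 genes at an unadjusted p under 0.05. The number of member sites in every list was 9 with the main rule, 9 with 50% reciprocal overlap or equal numbers of peaks, 6 with a fold minimum of 2 times the lowest of the list, and 9 to 10 when 1 list was left out. Of 122 values of the 14 member results under alternatives, 102 kept their direction and 20 turned, and none passed the threshold (smallest adjusted p = 0.187, NEDD4L site 2 with -log10 p ranked, at -0.87). With 1 list left out, the difference ranged from -1.03 to -0.63 for NEDD4L site 2, -1.36 to -0.36 for NEDD4 site 2 and -0.54 to -0.05 for ITCH site 2, which kept their direction. It turned for ITCH site 1 (-0.05 to 0.09), ITCH site 3 (-0.04 to 0.97), ITCH site 4 (-0.34 to 0.21), NEDD4L site 1 (-0.49 to 0.43), SMURF2 (-1.04 to 0.02 by site, -1.11 to 0.03 by gene), WWP1 (-0.51 to 0.16 by site, -0.48 to 0.18 by gene), ITCH by gene (-0.39 to 0.22) and NEDD4 by gene (-0.88 to 0.88). Without replicate 2 of sgNS, SMURF2 site 1 stood at 0.02 and NEDD4 site 2 at -0.36. The other values that turned were ITCH site 1 on log2 folds (-0.22, around a median of -0.22 over all sites), ITCH site 4 with -log10 p ranked (0.13), and NEDD4 by gene, at -0.10 on log2 folds and at -0.46 as the mean of its peaks; the cause was not tested. With 50% reciprocal overlap or equal numbers of peaks, 1 member site (NEDD4L site 3) was found in both sgNS lists and in no sgMETTL1 list. With the fold minimum that 1 site was NEDD4L site 2. With the replicate block limma called 0 sites and 0 genes, as without it, and NEDD4L site 2 stood at -0.81 (adjusted p = 0.484). The replicate numbers share no stated batch, and the block is given for completeness. The reads behind a fold are not listed, which limits how firmly peaks such as those of SMURF1 can be read.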
